A study of Mus musculus with 15 samples.

Results

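The genes described here are 10 markers and regulators of spermatogonia, the germ cells at the base of the seminiferous tubule: Zbtb16, Gfra1, Ret, Id4, Kit, Stra8, Sohlh1, Sohlh2, Dmrt1 and Uchl1. They were taken by name, and each matched 1 Entrez gene ID among the 23510 gene IDs of the expression table. Poly(A) RNA of whole testis was sequenced in 15 libraries of ICR mice, an outbred stock, in 5 groups of 3. Con is a control whose labels name no vector. MNC is the vector control of the lentivirus, and M1, M3 and M5 are testes that received lentivirus against the muscarinic acetylcholine receptor of that name, each as a mixture of hairpins to several positions of the receptor RNA. The virus was injected into the testes of pubertal mice, and nothing in the labels limits it to 1 cell type. The labels do not say whether the 3 libraries of a group came from separate animals, so p-values measure the spread between libraries.

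Spermatogonia divide between self-renewal and differentiation. In undifferentiated cells, glial cell line-derived neurotrophic factor from Sertoli cells acts on the receptor tyrosine kinase RET and its co-receptor GFRA1, while the zinc finger repressor ZBTB16 (PLZF) and the inhibitor of DNA binding ID4 mark and maintain the stem cell pool. Retinoic acid then drives the transition to differentiating cells that carry the receptor KIT, and induces STRA8, which acts at the entry into meiosis. The bHLH factors SOHLH1 and SOHLH2 promote differentiation, DMRT1 controls the switch between mitosis and meiosis and is made in Sertoli cells too, and the deubiquitinase UCHL1 is an abundant spermatogonial protein.

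No member was called between any knockdown and its vector control, where at most 5.65% of all genes were called. Against Con 1 or 2 of the 9 members tested were called in each injected group, where 20.4% to 34.2% of all genes were. Id4 was the single member called between MNC and Con, and it was lower in all 12 injected libraries than in all 3 Con libraries. Sohlh1 stood higher in MNC than in all the other groups. Kit, Stra8 and Dmrt1 varied within M5, where replicate 3 stood apart in most members and in the median of all genes. Whole testis was measured, so fewer spermatogonia, less RNA per spermatogonium and a change in the RNA of other cells cannot be told apart.

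The sources used here give no read totals. Summed FPKM (fragments per kilobase of gene, scaled to the mapped total of the library) ran from 470243 to 513817, which says nothing of depth, and at least 20619 genes lay above 0 in each library. The value of 1 read, read from steps between low FPKM values of 59 to 85 genes per library, put the relative depth between 0.92 and 1.03. These genes were selected for steps within 10% of each other, so a larger gap in depth could not have shown. With transcript lengths, the steps of 48 single-transcript genes gave a median depth, in units of 10 to the power of 6 mapped fragments, of 21.1 with quartiles of 19.2 and 22.8, an estimate for all libraries together. The targeted receptors were too low to check the labels. Chrm1 was at 0.14, 0.11 and 0.09 FPKM in M1 and at 0.1, 0.11 and 0.11 in MNC (exact permutation test, two-sided, p = 0.9). Chrm3 was at 0.08, 0.04 and 0.11 in M3 and at 0.05, 0.01 and 0.05 in MNC (exact permutation p = 0.3). Chrm5 was at 0.37, 0.22 and 0.37 in M5 and at 0.43, 0.23 and 0.43 in MNC (exact permutation p = 0.5). The tissue carried its markers, with summed FPKM of 7 elongating spermatid genes from 11011 to 31054 and of 12 Sertoli cell genes from 446 to 820.

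FPKM is scaled by gene length, so the members can be set in order by their mean over the 15 libraries. Uchl1 came first with 28.4 FPKM, followed by Id4 with 24.9. Dmrt1 had 9.58, Stra8 7.49, Sohlh2 6.06 and Kit 5.65. Sohlh1 (2.97), Gfra1 (2.87), Zbtb16 (1.002) and Ret (0.375) were the lowest. Uchl1 and Id4 overlapped in their ranges, and Uchl1 was the higher in 12 of 15 libraries. Id4 lay above Dmrt1 in all 15 with no overlap of the ranges, and so did Gfra1 above Zbtb16 and Zbtb16 above Ret. From Dmrt1 down to Gfra1 each neighbour overlapped the next. Sohlh1 and Gfra1 could not be put in order, with Sohlh1 higher in 7 of 15 libraries. Genes with a mean of at least 1 FPKM were tested, which kept 9 members. Ret lay below this threshold. Zbtb16 lay just above it, and without the Con libraries its mean was 0.957, so it passed through the group where it was highest. At the estimated depth, and with the longest annotated transcript of each gene, Ret rested on about 28 to 70 fragments per library, Sohlh1 on about 63 to 122 and Zbtb16 on about 82 to 140. The other members had at least 188.

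**Figure D1:**
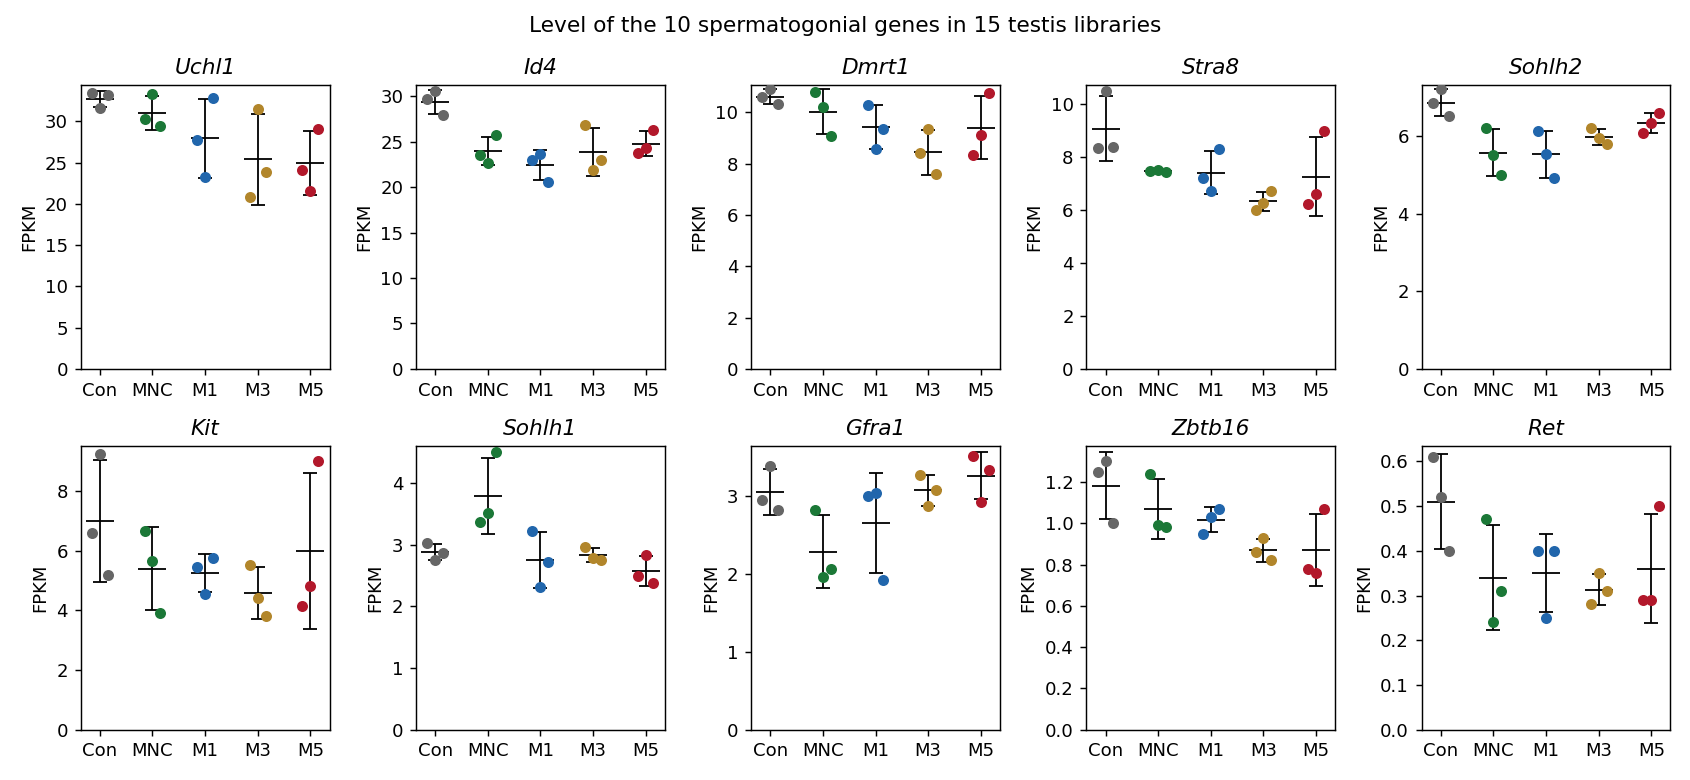
FPKM (vertical axes, each from 0) of each of the 10 members in the 15 libraries by group. Points are libraries, with the 3 replicates from left to right, and bars are the group mean and SD (n = 3). Id4 in all injected libraries, at most 26.8, lies below Con, whose lowest value is 28.0, and M5 replicate 3 lies above its group mates for Kit, Stra8 and Dmrt1.

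The comparison of MNC with Con asked how the markers differ after injection of a vector without a receptor hairpin. limma called 20.4% of the 14514 genes tested at an adjusted p under 0.05, 12.4% as lower in MNC. Of the 9 members tested, 1 was called, and the libraries of the groups did not overlap for 4, against 46.5% of all genes. The members Id4, Stra8, Sohlh1 and Sohlh2 make up these 4. The promoters of Id4, Sohlh1 and Sohlh2, the 250 bases before the RefSeq start on GRCm38.p6, are shown since Id4 blocks the bHLH factors and Sohlh1 and Sohlh2 encode such factors. Promoters of 7 of the 10 members were matched. Capitals mark the GC box GGGCGG in Id4 and the E-box CANNTG, the kind of site that bHLH factors bind, in Sohlh1 and Sohlh2. Both strands were searched.
Id4 promoter (chr13:48260866-48261115, + strand): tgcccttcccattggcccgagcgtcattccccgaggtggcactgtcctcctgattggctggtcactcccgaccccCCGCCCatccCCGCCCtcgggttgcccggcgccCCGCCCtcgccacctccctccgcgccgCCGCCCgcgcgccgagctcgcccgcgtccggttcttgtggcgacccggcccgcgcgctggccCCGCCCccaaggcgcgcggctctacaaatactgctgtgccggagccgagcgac
Sohlh1 promoter (chr2:25847249-25847498, - strand): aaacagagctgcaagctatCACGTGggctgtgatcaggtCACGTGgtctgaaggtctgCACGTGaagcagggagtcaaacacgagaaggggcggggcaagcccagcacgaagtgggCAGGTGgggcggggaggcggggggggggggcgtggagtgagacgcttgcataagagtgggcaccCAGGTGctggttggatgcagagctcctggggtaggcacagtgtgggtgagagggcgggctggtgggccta
Sohlh2 promoter (chr3:55181794-55182043, + strand): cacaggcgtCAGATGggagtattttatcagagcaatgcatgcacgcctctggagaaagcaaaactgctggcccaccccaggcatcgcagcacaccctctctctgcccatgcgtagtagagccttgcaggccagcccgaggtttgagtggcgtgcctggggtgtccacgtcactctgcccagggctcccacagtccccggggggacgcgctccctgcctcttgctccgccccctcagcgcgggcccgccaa

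The Sohlh1 window held 5 E-boxes, 3 of them CACGTG. Of 32851 RefSeq promoter windows of this length, 6.02% held CACGTG and 66.2% any E-box. The GC boxes of Sohlh1 and Sohlh2 are not marked. Sohlh2 held 1 E-box, and Id4 held none but carried 5 GC boxes in a window of 75.6% GC, where 32.7% of windows held a GC box and the median GC was 52.4%. These matches describe letters and no binding was measured.

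Id4 (chromosome 13, 48261116 to 48266028), whose product blocks DNA binding by bHLH partners, was at 29.7, 30.6 and 28.0 FPKM in Con. MNC had 23.5, 22.7 and 25.7. M1 had 23.0, 23.7 and 20.6, M3 had 26.8, 21.9 and 23.0, and M5 had 23.7, 24.3 and 26.3. Exons of the antisense transcripts A330033J07Rik and Gm49291 overlap those of Id4, and without strand their reads and those of Id4 cannot be told apart. The 12 injected libraries all lay below the 3 Con libraries, as was found for 11.5% of the genes tested. Id4 fell by 0.29 on the log2(FPKM + 1) scale in MNC (SE 0.065, 95% interval -0.44 to -0.13, limma adjusted p = 0.0337). Against Con it fell by 0.38 in M1 (limma adjusted p = 0.0123) and by 0.24 in M5 (limma adjusted p = 0.0448), with -0.29 in M3 (limma adjusted p = 0.0533), and these comparisons share the Con libraries. The call in MNC was lost after each library was centred on its median (-0.20, limma adjusted p = 0.0943), and with any Con library or MNC replicate 1 or 2 left out (limma adjusted p from 0.0539 to 0.117).

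Stra8 (chromosome 6, 34920163 to 34939344), the retinoic acid-induced gate to meiosis, was at 8.31, 10.5 and 8.38 FPKM in Con and at 7.45, 7.50 and 7.41 in MNC. The MNC libraries lay close together and all below Con, a difference of -0.24 that was not called (SE 0.095, limma adjusted p = 0.109). Sohlh2 (chromosome 3, 55182044 to 55209957) was at 6.86, 7.21 and 6.52 FPKM in Con and at 6.21, 5.52 and 5.0 in MNC, also with no overlap (-0.26, SE 0.088, limma adjusted p = 0.079). It was called with all 5 groups in one fit (limma adjusted p = 0.0437) and without MNC replicate 1 (limma adjusted p = 0.0481). Its partner Sohlh1 (chromosome 2, 25842995 to 25847248) was the member on the other side. Sohlh1 was at 3.03, 2.76 and 2.86 FPKM in Con and at 3.37, 3.51 and 4.50 in MNC, a difference of 0.30 that was not called (SE 0.107, limma adjusted p = 0.0928).

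Over the 9 members tested, 8 were lower and 1 higher in MNC than in Con, with a median of -0.24 against -0.095 for all genes. After median centring the split was 5 lower and 4 higher, and after quantile normalization 7 and 2, so the balance of directions depended on the scaling. The mean of 7 of the 9 lay below Con in all 4 injected groups, against 42.6% of all genes, and Ret, outside the tested set, did so too. The exceptions were Sohlh1, higher in MNC, and Gfra1, higher in M3 and M5. Zbtb16 is among the 7, and among the 8 lower in MNC. It passed the filter only through Con, where it was highest, so its place below Con carries no weight.

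Set against Con, each knockdown had 2 members called. These were Id4 and Uchl1 in M5, where 21.7% of all genes were called, Id4 and Sohlh2 in M1, where 34.2% were, and Stra8 and Dmrt1 in M3, where 22.1% were. Sohlh2 fell by 0.27 in M1 (limma adjusted p = 0.0473). The libraries did not overlap for 2 of 9 members in M5 (42.2% of all genes), 4 in M1 (53.6%) and 6 in M3 (49.3%), all of them lower than Con. Zbtb16, which passed the filter only through Con, is among the 6 in M3. Injection and knockdown cannot be told apart in these comparisons, since the labels of Con name no vector.

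**Figure D2:**
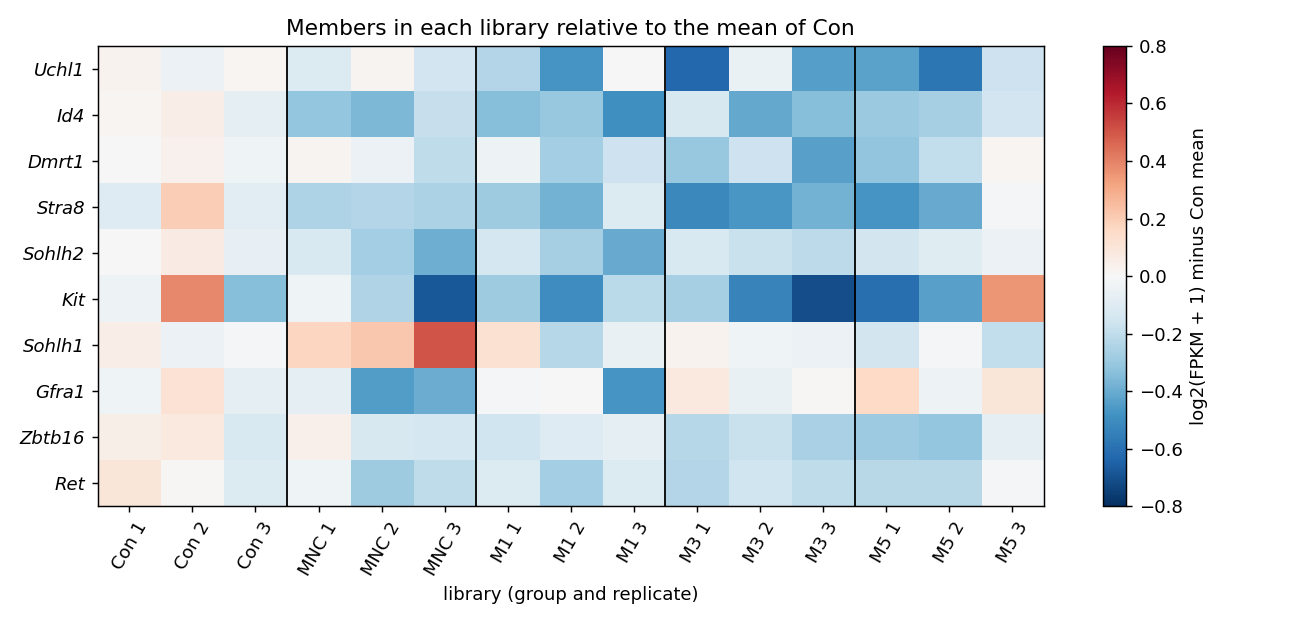
Each cell gives log2(FPKM + 1) of a member (rows, by mean level) in a library (columns, by group and replicate) minus the mean of the 3 Con libraries, in blue where lower and red where higher. The row of Id4 is blue in all injected libraries, that of Sohlh1 is red in MNC, and M5 replicate 3 is red for Kit where M5 replicates 1 and 2 are blue.

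The comparison of M5 with MNC asked whether the markers change with knockdown of the M5 receptor. Of all genes 5.65% were called, and of the 9 members tested 0 were called, while 3 had an unadjusted p under 0.05. The groups did not overlap for the same 3 members, Sohlh1, Gfra1 and Uchl1, a share of 33.3% against 32.1% of all genes. In M5, Sohlh1 had 2.5, 2.84 and 2.38 FPKM, below all MNC libraries and overlapping Con. The difference from MNC was -0.42 (SE 0.13, 95% interval -0.73 to -0.11, limma adjusted p = 0.11), and it was called with all 5 groups in one fit (limma adjusted p = 0.0226). With the GC trend removed it was -0.27 (limma adjusted p = 0.34). Against Con it was -0.12 (limma adjusted p = 0.421), so the size depended on the control.

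Gfra1 (chromosome 19, 58235581 to 58455946), the co-receptor that defines the most primitive spermatogonia, went the other way. M5 had 3.52, 2.93 and 3.34 FPKM, MNC had 2.83, 1.97 and 2.07, and Con had 2.95, 3.39 and 2.83. MNC was the low group here, and M5 and Con overlapped. The difference between M5 and MNC was 0.38 (SE 0.138, 95% interval 0.05 to 0.71, limma adjusted p = 0.152), and against Con it was 0.07 (limma adjusted p = 0.672). Uchl1 (chromosome 5, 66676121 to 66687234) had 24.1, 21.6 and 29.1 FPKM in M5, against 30.3, 33.3 and 29.4 in MNC and 33.4, 31.6 and 33.2 in Con. M5 replicate 3 came close to the lowest MNC library, and the difference was -0.31 (SE 0.116, limma adjusted p = 0.16). With the GC trend removed it was -0.19 (limma adjusted p = 0.293), while that of Gfra1 stayed at 0.37. Against Con, Uchl1 fell by 0.39 in M5 (limma adjusted p = 0.0454).

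Kit (chromosome 5, 75574987 to 75656722), the receptor of differentiating spermatogonia that Leydig cells and mast cells also carry, showed how wide one group could be. M5 had 4.16, 4.81 and 9.0 FPKM of Kit, against 6.66, 5.65 and 3.90 in MNC and 6.61, 9.23 and 5.20 in Con. The interval of the difference between M5 and MNC ran from -0.60 to 0.77, the widest of the members. Stra8 followed in the same libraries with 6.22, 6.58 and 8.96 FPKM in M5. Dmrt1 (chromosome 19, 25505618 to 25604328) had 8.33, 9.13 and 10.8 in M5, and Zbtb16 (chromosome 9, 48651797 to 48836225) had 0.78, 0.76 and 1.07. M5 replicate 3 was the highest of its group for 8 of the 10 members, all but Gfra1 and Sohlh1. The median FPKM over the genes tested was 9.92 in that library against 8.46 and 8.53 in its group mates, but lists of genes went both ways. In that library the 7 Leydig cell genes summed to 3168 FPKM against 1769 and 1521 in its group mates, the 12 Sertoli cell genes to 820 against 446 and 507, the 6 macrophage genes to 199 against 75.4 and 92.7, the 5 red blood cell genes to 491 against 167 and 148, and the 6 mast cell genes to 2.52 against 2.14 and 1.92. The part of these cells in the levels of Kit and Dmrt1 was not tested. Later germ cell lists were lower in M5 replicate 3. Elongating spermatid genes summed to 22162 FPKM against 27575 and 31054, and pachytene spermatocyte genes to 2795 against 3146 and 3178. The other differentiating spermatogonial genes summed to 321 against 366 and 352, a sum carried by Dmrtb1 (231 against 280 and 269). It does not give the direction of that list, where Meioc was lowest there too but Ccnd2 and Esx1 were highest. The other undifferentiated spermatogonial genes summed to 73.1 against 54.8 and 59.6. Without M5 replicate 3, 0 of the 9 members were called.

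For the remaining members, 95% intervals give the range of the difference between the M5 and MNC libraries on the log2(FPKM + 1) scale. They hold for this scaling and do not bound an effect of the knockdown. With the GC trend removed, the estimate for Id4 went from 0.05 to -0.09. A difference that was not called is not shown to be absent. The intervals were -0.13 to 0.23 for Id4, -0.38 to 0.28 for Stra8, -0.09 to 0.41 for Sohlh2, -0.37 to 0.19 for Dmrt1 and -0.44 to 0.15 for Zbtb16. Ret (chromosome 6, 118151748 to 118197744), the kinase subunit that signals for GFRA1, had 0.29, 0.29 and 0.50 FPKM in M5 against 0.47, 0.24 and 0.31 in MNC (exact permutation test, two-sided, p = 0.7, n = 3 each). Its highest value was 0.61, in Con replicate 1, and the lowest 0.24, in MNC replicate 2. With 3 against 3 libraries this test cannot go below 0.1.

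**Figure D3:**
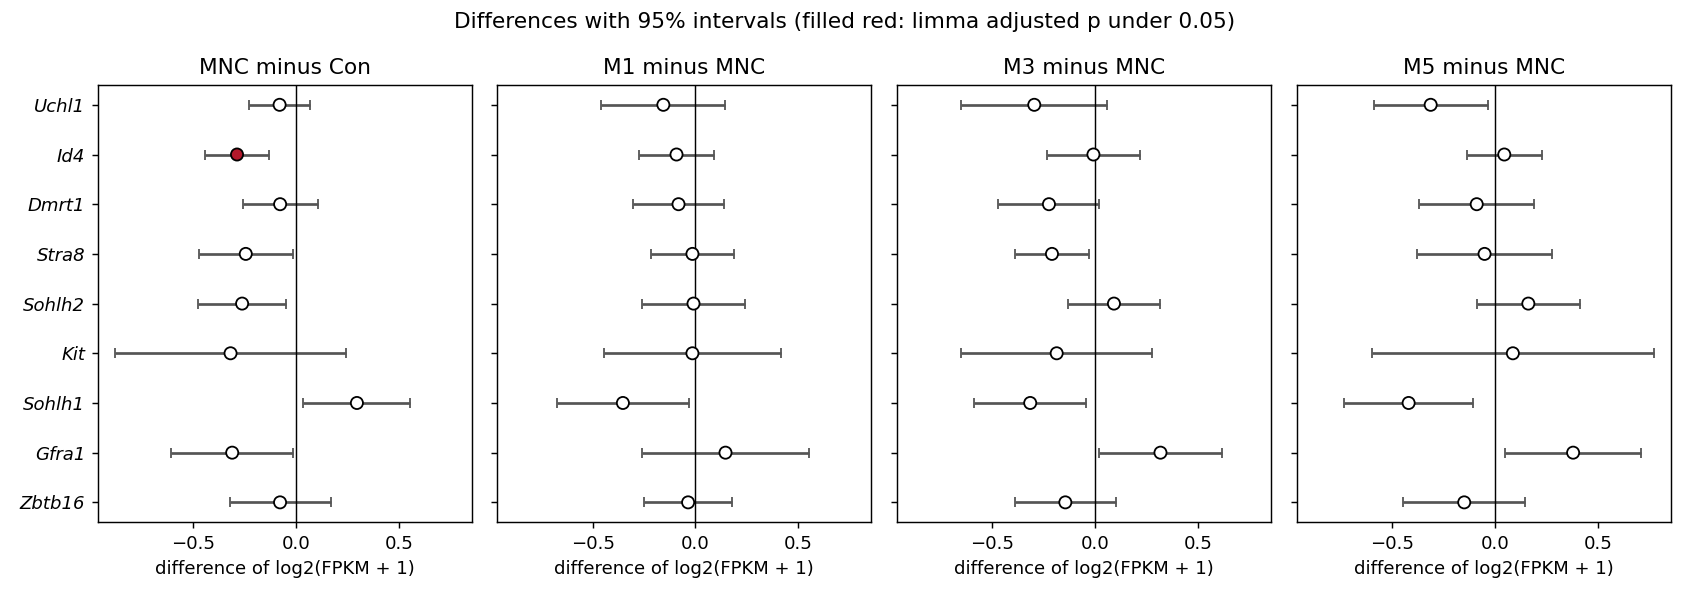
Difference of log2(FPKM + 1) (horizontal axes) of the 9 members tested for MNC minus Con and for each knockdown minus MNC, with 95% intervals from limma. Of the 36 differences, that of Id4 between MNC and Con, at -0.29, is the one filled red as called, and Kit has the widest interval in all 4 panels.

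M1 and M3 were set against MNC for the same question. In M1, 0 of all genes (0%) and 0 members were called, with an unadjusted p under 0.05 for 862 of the genes and 1 member. The groups did not overlap for that member, Sohlh1, a share of 11.1% against 12% of all genes. Sohlh1 came out at 3.23, 2.31 and 2.72 FPKM in M1 (difference -0.35, SE 0.133, limma adjusted p = 0.819). The next member by p was Uchl1, at 27.7, 23.3 and 32.8 FPKM in M1 (-0.16, SE 0.124, limma adjusted p = 0.861). M1 replicate 3 reached the level of MNC, so the groups overlapped for Uchl1. Gfra1 spread as widely, with 3.00, 3.05 and 1.92 FPKM.

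In M3, 1 of the 14514 genes tested (0.00689%) and 0 members were called, and 1369 genes and 3 members had an unadjusted p under 0.05. Stra8 was at 5.99, 6.25 and 6.71 FPKM in M3, lower than in all MNC and Con libraries. The difference from MNC was -0.21 (SE 0.074, limma adjusted p = 0.518), and against Con it fell by 0.45 (limma adjusted p = 0.0324). Sohlh1 was at 2.96, 2.79 and 2.75 FPKM, -0.32 from MNC (SE 0.113, limma adjusted p = 0.518). Gfra1, at 3.27, 2.88 and 3.08, lay above MNC by 0.32 with the same adjusted p. Zbtb16, at 0.86, 0.93 and 0.82 FPKM in M3, lay below all MNC libraries (1.24, 0.99 and 0.98) and all Con libraries (1.25, 1.30 and 1.00), with a difference from MNC of -0.14 (limma adjusted p = 0.6). The groups did not overlap for 4 of 9 members, a share of 44.4% against 17.1% of all genes. Of the 9, 7 were lower than in MNC, with a median of -0.19 against -0.04 for all genes. These sizes depended on the scaling. After median centring Id4 went from -0.01 to 0.06, Kit from -0.19 to -0.12 and Stra8 from -0.21 to -0.14. Gfra1, already higher, went from 0.32 to 0.38. Dmrt1, at 8.42, 9.34 and 7.58 FPKM, fell by 0.30 against Con (limma adjusted p = 0.0469) but was not called against MNC (limma adjusted p = 0.522). Kit was lowest in M3, at 5.52, 4.41 and 3.80. Against MNC, 9 of 12 Sertoli cell genes and 6 of 7 Leydig cell genes were lower too, with medians of -0.14 and -0.83. Against Con the medians were -0.36 and -1.04, with 7 Sertoli cell and 2 Leydig cell genes called lower. The part of these cells in the lower Dmrt1 and Kit was not tested.

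The 3 knockdowns share the MNC libraries, so their differences from MNC are given side by side only. For Sohlh1 they were -0.35, -0.32 and -0.42 in M1, M3 and M5, and for Gfra1 0.15, 0.32 and 0.38. Each of these members had its extreme group mean in MNC, with 3.79 ± 0.616 FPKM for Sohlh1 and 2.29 ± 0.47 for Gfra1 (SD, n = 3). The knockdowns and Con lay at 2.57 to 2.88 and at 2.66 to 3.26. Set directly against each other, the knockdowns differed in no member at an adjusted p under 0.05, and 0 members had an unadjusted p under 0.05 in the 3 comparisons. Of all genes 6.75% were called for M5 with M1, 0.0138% for M5 with M3 and 0% for M1 with M3, where 672 genes had an unadjusted p under 0.05. The libraries did not overlap for 1 member (Id4), 0 members and 1 member (Zbtb16) in this order, against 33.7%, 22.9% and 10.5% of all genes. The members with the lowest p for M5 with M1 were Id4 (0.14, SE 0.074, limma adjusted p = 0.298), followed by Sohlh2 (0.17, SE 0.098, limma adjusted p = 0.322). Stra8 and Dmrt1 came first for M5 with M3 (0.16 and 0.14, limma adjusted p = 0.577 and 0.582) and for M1 with M3 (0.19 and 0.14, limma adjusted p = 0.899 each). The F test over the 5 groups called 33.6% of all genes and 1 of 9 members, Id4 (limma adjusted p = 0.0248), with Sohlh1 next (limma adjusted p = 0.0506).

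The ratio of Kit to Zbtb16 sets a marker of differentiating cells against 1 of undifferentiated cells within a library, where the scaling of the library cancels. On the log2 scale it was 2.54 ± 0.253 in Con, 2.31 ± 0.278 in MNC, 2.36 ± 0.194 in M1, 2.38 ± 0.262 in M3 and 2.72 ± 0.332 in M5 (SD, n = 3 each). The highest value was 3.07, in M5 replicate 3, and the lowest 1.99, in MNC replicate 3. The libraries of M5 and MNC overlapped, and Kit is not limited to spermatogonia.

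Across the 15 libraries, Kit, Stra8, Zbtb16 and Dmrt1 moved together, with Pearson r between 0.728 and 0.786 for the 6 pairs. Gfra1 and Sohlh1 moved apart (r = -0.597). Over the 36 pairs of tested members, r ranged from -0.597 to 0.786 with a median of 0.398. These values are descriptions, since the libraries share scaling and group effects. The genes most like each member were sought among all named genes tested, by r over the same 15 libraries. Stra8 was followed most closely by Tex19.1 (r = 0.919), a germ cell gene that restrains retrotransposons, and Chdh (0.916). Kit was nearest to Zfp275 (0.928) and Slc27a4 (0.927), Dmrt1 to L3mbtl4 (0.959) and Mro (0.927), and Zbtb16 to Dhx35 (0.965) and Sash1 (0.931). Id4 was nearest to Cdc7 (0.885), a kinase of DNA replication, and Tmem129 (0.882). Sohlh2 was nearest to Mrfap1 (0.918) and Atl2 (0.897), Sohlh1 to Necab2 (0.902) and Cpne5 (0.836), Gfra1 to Actl6a (0.895) and 1110004F10Rik (0.849), and Uchl1 to Itgb5 (0.92) and Arfgap1 (0.913). None of these belongs to the lists of the pathway. Sohlh1 and Gfra1 had few such genes, 7 and 17 with r over 0.8, against 421 for Dmrt1.

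The rest of the spermatogonial pathway was followed in lists. Of 21 further genes of undifferentiated spermatogonia, 11 were tested. Between M5 and MNC 1 rose, Epcam, a surface adhesion protein, with 22.9, 24.1 and 24.6 FPKM in M5 and 18.4, 18.4 and 15.7 in MNC (0.43, limma adjusted p = 0.04), and the median of the list was 0.09 against 0.03 for all genes. None of the 11 was called in M1 or M3. Nanos2, which marks the stem cells that express Gfra1, reached at most 0.09 FPKM and was listed at 0 in 4 libraries. Between MNC and Con 1 of the 11 rose, Thy1, and the median was -0.14.

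The 12 tested genes of differentiating spermatogonia included 1 call between MNC and Con. Meioc, which sustains the meiotic program after STRA8, was at 37.6, 35.6 and 39.3 FPKM in MNC and 43.7, 48.0 and 46.9 in Con, and fell by 0.29 (limma adjusted p = 0.0274). No gene of this list was called between a knockdown and MNC. The medians were -0.16 for MNC against Con and -0.06 for M5 against MNC. With the GC trend removed, the latter was 0.001.

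Among the niche ligands, Kitl, the ligand of KIT, was at 2.54 to 6.43 FPKM and Gdnf, the ligand of RET and GFRA1, at 0.24 to 0.53. Of the 4 ligands and the 10 retinoic acid genes tested, 0 were called between MNC and Con or between a knockdown and MNC. The co-receptor Gfra2, a relative of Gfra1, had 17.1, 19.1 and 18.6 FPKM in M5 against 23.6, 22.6 and 23.8 in M1, and was lower in M5 by a difference of -0.34 (limma adjusted p = 0.0327). Of 5 DMRT relatives tested, Dmrtc2 fell by 0.39 between M5 and MNC (39.4, 39.4 and 38.1 against 50.9, 49.6 and 53.2 FPKM, limma adjusted p = 0.0208).

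Of 3 relatives of Uchl1, 2 rose in M5 against MNC. Uchl5, a proteasome-bound deubiquitinase, had 46.8, 47.0 and 44.3 FPKM in M5 against 26.2, 27.0 and 27.3 in MNC, and rose by 0.76 (limma adjusted p = 0.00351). Uchl3 rose by 0.37 (limma adjusted p = 0.0441). The third, Bap1, a nuclear deubiquitinase, had 33.7, 32.4 and 32.5 FPKM in M5 and 36.95, 35.49 and 33.75 in MNC and was not called, but fell by 0.24 in M5 against Con (limma adjusted p = 0.0418). M3 replicate 3 had 44.3 FPKM of Uchl5, just under the lowest M5 library, against 29.5 and 32.0 in its group mates. Uchl5 and Uchl3 fell between MNC and Con, Uchl5 by 0.32 and Uchl3 by 0.22 (limma adjusted p = 0.0181 and 0.0402). Uchl1 itself was not called between M5 and MNC or between MNC and Con.

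The stages that follow the spermatogonia were set beside the members. Between MNC and Con, 5 of 12 early spermatocyte genes fell and 1 rose, with a median of -0.28. Among them Hormad1, a chromosome axis protein, fell by 0.44 (limma adjusted p = 0.0158) and Sycp1, of the synaptonemal complex, by 0.49 (limma adjusted p = 0.0339), while Rec8, the meiotic cohesin, rose by 0.29 (limma adjusted p = 0.0254). The 7 elongating spermatid genes were all higher, with 3 called and a median of 0.79, and their summed FPKM was 11011 to 21526 in Con and 22719 to 28890 in MNC. Of 12 Sertoli cell genes 2 fell, with a median of -0.27. The 6 epididymal genes summed to 14.9 to 34.5 FPKM in Con and to at most 0.34 in MNC. The lower members in MNC stood beside lower spermatocyte and Sertoli cell genes and higher spermatid genes, and the part of cell makeup in them was not tested. Between M5 and MNC, Sycp1 rose by 0.79 (limma adjusted p = 0.0125) and Hormad1 by 0.70 (limma adjusted p = 0.00634), 2 of the 12. Stra8, which acts at the entry to this stage, had a difference of -0.05. Against Con, Hormad1 rose by 0.25 in M5 (limma adjusted p = 0.0333) and Sycp1 was not called. M3 replicate 3 had 81.2 FPKM of Sycp1, within the range of M5, against 59.25 and 53.68 in its group mates. Among later germ cell genes, Odf1, of the sperm tail, fell by 0.51 in M5 against MNC (limma adjusted p = 0.0337). Acr, an acrosomal protease, fell by 0.27 (limma adjusted p = 0.0363). Their lists went both ways: of 7 elongating spermatid genes 3 were higher and 4 lower (median -0.24). Of 6 round spermatid genes 3 were higher and 3 lower (median -0.12). The mean of Odf1 was 938 FPKM in M5, above the 695 of Con. Of 5 globin and other red blood cell genes 3 rose, with sums of 148 to 491 FPKM in M5 and 21.8 to 35.3 in MNC, and the part of blood and of cell makeup in the M5 values was not tested. GC content followed the M5 differences across 13364 genes (Spearman rho -0.453, across genes, which are not independent).

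**Figure D4:**
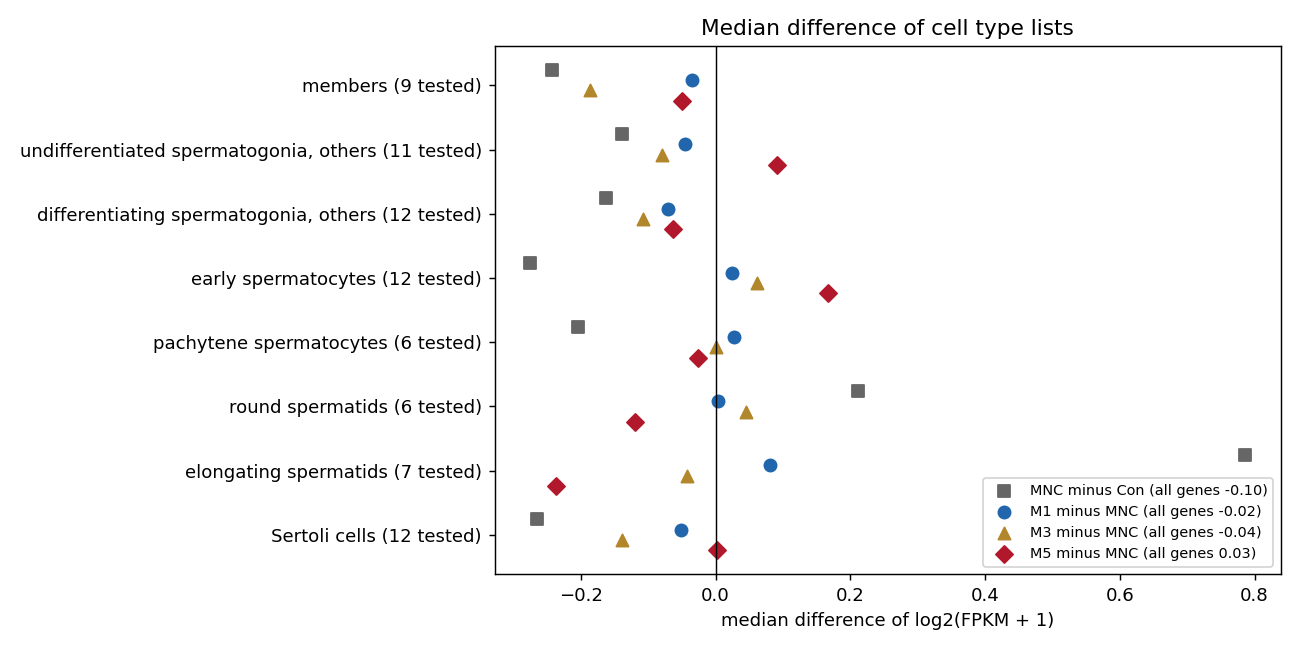
Median difference of log2(FPKM + 1) (horizontal axis) over the tested genes of the members, other spermatogonial lists, later germ cell stages and Sertoli cells, for 4 comparisons by symbol, with the median over all genes in the legend. For MNC minus Con the members (-0.24) and early spermatocytes (-0.28) lie left of all genes (-0.095) and the elongating spermatids (0.79) right of it. The members lie near 0 in M1 and M5, and at -0.19 in M3 against -0.04 for all genes, with no scaling beyond FPKM.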

How the data were processed

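RNA sequencing covered 15 testis libraries in 5 groups of 3, and titles gave the group and number of each. For M5 replicate 2 the title was followed, since its description points to the column of replicate 1. Per the study's methods, SOAPaligner placed reads on reference genes. The labels name build mm10, and the annotation is not given in the sources used here. The authors deposited 1 table of FPKM to 2 decimals. Names came from RefSeq on GRCm38.p6, which matched 21143 (89.9%) of 23510 IDs.

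Values were analysed as log2(FPKM + 1), a scale that understates changes of low genes. A filter of mean FPKM 1 left 14514 genes for limma 3.58.1 in R 4.3.3 (eBayes with trend, 2 groups per fit, two-sided, Benjamini-Hochberg over all genes tested, called under 0.05). The study's own test needs counts, which were not used here. An F test over 5 groups used 1 fit. Ret was compared by exact permutation. Fits were tested on simulated data. All members are described. Those printed with a fold change are the called ones, or the 2 with the lowest p, and others chosen after their values were seen. Members and lists were chosen with earlier results of these data known. No 2 libraries were identical. Python 3.11.15, pandas 2.3.3, numpy 2.4.6 and matplotlib 3.10.9 were used.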

Additional observations from a re-analysis of the deposited data

How the results depend on the processing

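Alternatives were a pseudocount of 0.1, filters on mean FPKM of 0.1, 5 and none, median centring, quantile normalization, no trend in eBayes, all 5 groups in one fit, the replicate block, Con as the control, each replicate left out, and, chosen after seeing the data, removal of the GC trend. None of the members named by the rule changed direction in its comparison. Between MNC and Con (1 member called), 0 were called with no filter, median centring, the GC trend removed or the replicate block, 2 with all 5 groups in one fit, and 0 to 2 with a replicate left out (Id4 -0.29, limma adjusted p = 0.053 with no filter and 0.083 with the block, and -0.18, adjusted p = 0.133, with the GC trend removed). Counts over all genes fell there from 2967 to 1740 with no filter, 10 with the block and 8 without Con replicate 1. For M5 against MNC they went from 820 to 447 with no filter, 182 with median centring, 146 with the GC trend removed, 215 without the trend in eBayes, 2424 with all 5 groups in one fit, 14 with the block and 35 to 946 with a replicate left out. For M5 against M1 they went from 980 to between 39 (block) and 1690. With Con as the control, 2 members were called in M5, M1 and M3 each, against 0, and with all 5 groups in one fit 1 was called in M5. Over the 5 groups (1 called), 0 were called with median centring, quantile normalization, the GC trend removed or the replicate block, 2 without the trend in eBayes, and 0 to 2 with a replicate left out. No pairing of libraries by replicate number was seen. Same-numbered libraries had deviations correlated between -0.399 and 0.193, over 0.1 in 5 of 30 pairs, and 4 of 15 libraries correlated best with their own number. Such a check cannot exclude pairing. The cause of these changes was not tested. Depth limits Ret, Sohlh1 and Zbtb16 most.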

Other observations

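Thy1, a surface protein used to enrich spermatogonial stem cells that T cells also carry, was at 0.34, 0.31 and 0.14 FPKM in Con and at 2.71, 1.56 and 1.27 in MNC (1.14 on the log2 scale, limma adjusted p = 0.0222). M5 had 3.48, 4.08 and 3.46, M1 had 2.14, 4.64 and 0.91, and M3 had 0.51, 2.19 and 1.37. Id2, a relative of Id4, had 4.08, 4.16 and 3.74 FPKM in Con and 7.99, 7.69 and 7.25 in M5, and rose by 0.79 between these groups (limma adjusted p = 0.00432), the opposite of the direction of Id4. Id2 lay above every Con library in all 12 injected libraries, and the share of all genes that did so was not counted.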
